A study of Mus musculus with 24 samples.

Results

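The 10 genes described here are classical immediate early genes of the mouse: Fos, Fosb, Jun, Junb, Egr1, Egr3, Arc, Npas4, Nr4a1 and Ier2. They were chosen by symbol, as the rows of the count tables whose Ensembl mouse gene identifier carries one of these names, and make up 10 of 126602 counted features. RNA sequencing was performed on 24 mouse retinal organoids (MROs), which are retina tissue grown in a dish from pluripotent stem cells, with 1 whole MRO per library and 6 MROs each on culture days (D) 20, 22, 25 and 30. All MROs came from 1 independent experiment with the mouse embryonic stem cell line E14TG2a, with the genotype labelled Control. They were cut into 3 pieces early in culture (the trisection protocol) and received the synthetic retinoid EC23 before the first day sampled here. All were control cultures to which only the solvent, water, was added. The timepoints therefore share line, genotype, protocol and vehicle, and differ in age. Age cannot be told apart from the day of harvest, or from the time since the last medium change, which the paper does not give. The organoids were separate, but with 1 experiment the p-values measure the spread between organoids and not between cultures.

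Immediate early genes are the first genes a cell transcribes after a stimulus, within minutes and without new protein synthesis. Growth factors and calcium entry reach their promoters through MAP kinases, serum response factor with its ternary complex partners, and CREB, and the transcripts decay quickly. Fos and Jun proteins pair to form the transcription factor AP-1, the Egr proteins are zinc finger activators, Nr4a1 is an orphan nuclear receptor, Npas4 is a factor induced by calcium in neurons, and Arc acts at the synapse, where it promotes the uptake of AMPA receptors. In the retina, light, injury and glial activation are known to induce several of them. They also respond to handling of the tissue.

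Between 13634846 and 19477108 reads per MRO were counted on a feature, and 3 counts corresponded to a level (CPM, scaled to library size) of 0.154 to 0.22, a floor that covers counting error only. The labelled tissue, retina, was checked against 8 photoreceptor markers, all of which passed the filter on low counts. Their summed level rose from 1022 to 1960 normalized CPM at D20 to 6785 to 13435 at D30. The markers of microglia and macrophages, which readily express immediate early genes when activated, summed to at most 1.31 normalized CPM in any MRO, and 0 of 6 passed the filter. In bulk libraries of whole MROs, fewer cells of a type and less RNA per cell cannot be told apart.

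For 4 members, the promoter window from 250 bases before to 50 bases after the RefSeq start site (GRCm38.p6) is shown, since Fos, Junb and Jun are the members that passed a test of timepoints and Npas4 moved with Fos across MROs. A window was matched by symbol for 6 of the 10 members: Fos, Fosb, Jun, Junb, Npas4 and Nr4a1. The windows of the 4 genes printed are chr12:85473640-85473939 on the plus strand for Fos, and, on the minus strand, chr8:84978699-84978998 for Junb, chr4:95052173-95052472 for Jun and chr19:4989922-4990221 for Npas4. Each is written 5′ to 3′ in the direction of transcription, and capitals mark CGTCA on either strand, which is part of the cAMP response element bound by CREB, and the TATA box TATAAA.
Fos: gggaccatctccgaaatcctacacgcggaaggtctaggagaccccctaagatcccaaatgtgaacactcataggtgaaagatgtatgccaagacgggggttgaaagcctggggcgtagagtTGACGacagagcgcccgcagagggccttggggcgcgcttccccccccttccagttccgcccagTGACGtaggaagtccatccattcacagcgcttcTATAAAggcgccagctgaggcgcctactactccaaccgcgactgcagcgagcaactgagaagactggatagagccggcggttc
Junb: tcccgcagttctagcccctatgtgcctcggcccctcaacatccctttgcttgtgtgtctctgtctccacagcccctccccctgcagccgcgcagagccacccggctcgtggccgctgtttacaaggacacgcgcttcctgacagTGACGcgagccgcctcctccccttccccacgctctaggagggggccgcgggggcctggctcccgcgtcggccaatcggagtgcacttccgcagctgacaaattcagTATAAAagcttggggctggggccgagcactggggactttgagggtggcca
Jun: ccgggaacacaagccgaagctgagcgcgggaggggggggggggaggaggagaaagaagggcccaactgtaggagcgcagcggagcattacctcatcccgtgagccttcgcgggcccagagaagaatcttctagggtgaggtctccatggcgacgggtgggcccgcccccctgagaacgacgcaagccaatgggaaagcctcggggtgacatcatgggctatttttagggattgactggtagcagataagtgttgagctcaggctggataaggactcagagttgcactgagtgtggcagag
Npas4: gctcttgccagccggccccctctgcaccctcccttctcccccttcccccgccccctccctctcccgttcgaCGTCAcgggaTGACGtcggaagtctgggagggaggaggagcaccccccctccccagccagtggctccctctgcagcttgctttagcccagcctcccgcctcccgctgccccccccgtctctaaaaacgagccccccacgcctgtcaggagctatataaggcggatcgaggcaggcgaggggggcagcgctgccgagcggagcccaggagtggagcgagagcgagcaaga
Positions are counted from the start site, with -1 the base before it. In Fos, CGTCA matches lay at -129 to -125 and -66 to -62 and the TATA box at -33 to -28, in Junb a CGTCA match lay at -106 to -102 and the TATA box letters at 1 to 6, and in Npas4 CGTCA matches lay at -179 to -175 and -169 to -165.

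Both strands were searched for these motifs and for the CArG box of serum response factor, the full cAMP response element (TGACGTCA), the AP-1 site (TGANTCA), the EGR site (GCGTGGGCG) and the NR4A site (AAAGGTCA). The part of the cAMP response element was found in 5 of the 6 member windows, against 20.8% of all 32851 windows of the same length. The letters of the TATA box were found in 2 of the 6, Fos and Junb, against 13.6% of all windows. In Junb they begin at the RefSeq start site itself. The 5′ end of Junb in GENCODE vM21, at 84978718, lies downstream of that site. None of the motifs searched was found in the window of Jun. The other motifs had no match in any of the 6 windows and occurred in 1.63% (CArG box), 1.79% (full cAMP response element), 7.81% (AP-1 site), 0.612% (EGR site) and 1.51% (NR4A site) of all windows. The full cAMP response element contains its part, so these matches overlap. A match in these letters is a description of the window only.

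Transcripts of all 10 members were detected, over a wide range of levels. Per kb of exon length, so that genes can be compared, Jun stood first with a mean of 41.2 normalized CPM per kb over the 24 MROs and made up 69.7% of the summed level of the 10 genes. Ier2 followed with 7.49% of the sum, Junb with 6.78% and Fos with 5.59%. The level per kb of Egr3 was the lowest at 0.0642, after Fosb at 0.189. Egr3 had at most 3 counts in 14 of the 24 MROs and did not pass the filter of a base mean of 10 normalized counts, so that tests across all features cover the other 9 members.

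**Figure D1:**
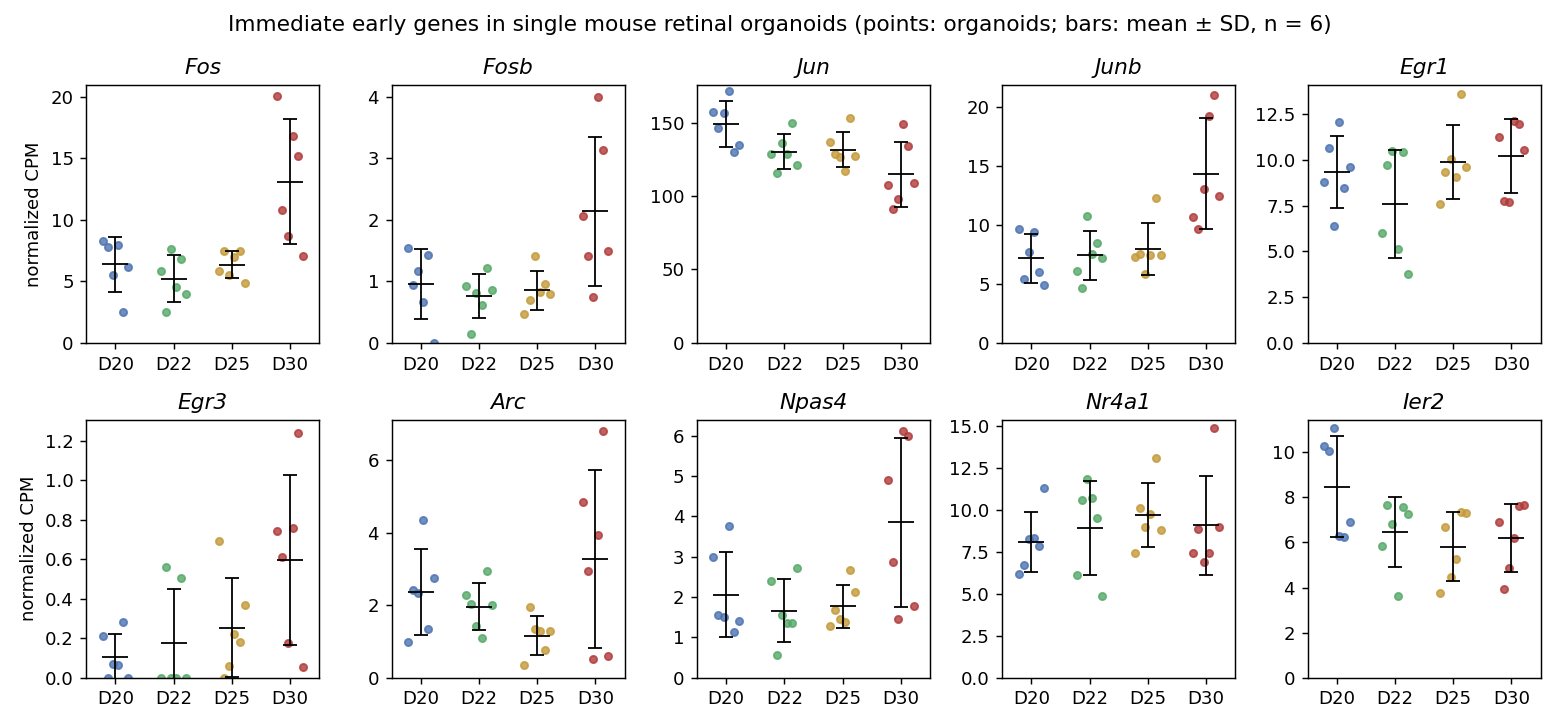
Normalized CPM (y axis, from 0) of each of the 10 genes in single MROs at D20, D22, D25 and D30 (x axis). Points are organoids and bars the mean ± SD (n = 6). Fos and Junb have their highest mean at D30, where the 6 MROs of Fos range from 7.04 to 20.1, and Jun its lowest. The MROs of D30 overlap with those of each earlier day for Fos, Junb and Jun, as for Egr1, Nr4a1 and Ier2.

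The members were compared between the timepoints to ask whether their levels change as MROs mature and age in culture. Fos rose 2.05-fold and Junb 2.00-fold between D20 and D30, and Jun fell by a smaller step, while the other 6 tested members passed no test between timepoints. With the quasi-likelihood test of edgeR and a threshold of 0.01 on the adjusted p, 3 of 9 members differed between D30 and D20, where 26.8% of the 46949 tested features did. For D30 against D22 it was 2 of 9, Fos and Junb, beside 21.5% of features, and the joint test of the 4 timepoints called the same pair, beside 27.2%. These shares are near those of the tested features, so that the number of members called is not a result about immediate early genes as a group.

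In the shorter steps no member passed. The counts were 0 of 9 for D22 against D20 (1.9% of features), D25 against D22 (5.28%), D25 against D20 (15.1%) and D30 against D25 (3.51%). At an unadjusted p under 0.05, 0, 0, 2 and 5 members stood in these comparisons, and DESeq2 called 0, 0, 0 and 2. The median log2 fold change of the 9 members was 0.85 for D30 against D25, beside -0.02 over all tested features and 0.05 over tested annotated genes. For D30 against D20 it was 0.46, beside -0.04 and 0.10. For D30 against D22 the median was 0.73, beside -0.09 and 0.14. The MROs of D30 and D20 overlapped for every one of the 9 members, whereas they did not overlap for 18.9% of tested features.

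Fos (chromosome 12, 85473890 to 85477273, GRCm38) encodes the founding partner of Jun in AP-1. Its level was 2.49 normalized CPM in the lowest, 7.0 in the median and 8.32 in the highest MRO at D20, and 2.51, 5.17 and 7.63 at D22. At D25 it was 4.88, 6.41 and 7.49, and at D30 7.04, 13 and 20.1. The 3 earlier timepoints covered about the same range, and 5 of the 6 MROs at D30 lay above every earlier one. The mean rose from 6.38 ± 2.20 at D20 to 13.1 ± 5.08 at D30 (SD, n = 6), a 2.05-fold change (log2 1.04, SE 0.27, edgeR adjusted p = 0.00295). Against D22 the log2 fold change was 1.33 (SE 0.27, edgeR adjusted p = 0.000349). Against D25 it was 1.04 (SE 0.27) and did not pass with edgeR (adjusted p = 0.0145), while DESeq2 gave an adjusted p of 0.00148 and the alternatives together ranged from 0.00148 to 0.0556. Without D30 replicate 1, which had the highest Fos level, the call against D20 was lost (edgeR adjusted p = 0.013).

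Fosb (chromosome 7, 19302696 to 19310051), a close relative of Fos whose stable splice form accumulates with repeated stimulation of neurons, was expressed at a low level. It had at most 3 counts in 2 of the 24 MROs. It was 0, 1.05 and 1.54 normalized CPM in the lowest, median and highest MRO at D20, and 0.753, 1.78 and 3.99 at D30. On the 4 days in turn the mean was 0.955 ± 0.566, 0.762 ± 0.363, 0.857 ± 0.315 and 2.14 ± 1.21 (SD, n = 6). The MROs of D30 overlapped with those of each earlier day, and 3 of them lay above the highest at D20. The log2 fold change was 1.16 against D20 (SE 0.52, edgeR adjusted p = 0.0822) and 1.47 against D22 (SE 0.53, edgeR adjusted p = 0.0329), which did not pass. The 0 in 1 MRO of D20 allows a level of up to 3 counts.

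Junb (chromosome 8, 84974484 to 84978718), a Jun family protein with a weaker activation domain, rose together with Fos. Its lowest, median and highest MRO had 4.87, 6.84 and 9.65 normalized CPM at D20, 4.68, 7.35 and 10.7 at D22, and 5.80, 7.43 and 12.3 at D25. At D30 they had 9.60, 12.7 and 21. Only the lowest MRO of D30 lay within the range of D20. The mean rose from 7.16 ± 2.06 at D20 to 14.3 ± 4.68 at D30 (SD, n = 6), with a log2 fold change of 1.00 (SE 0.23, edgeR adjusted p = 0.000815). Against D22 it was 0.94 (SE 0.23, edgeR adjusted p = 0.00179), and against D25 0.85 (SE 0.23), which did not pass with edgeR (adjusted p = 0.0183, range over the alternatives 0.00248 to 0.0679). Without D25 replicate 5, the MRO with 12.3, it passed (edgeR adjusted p = 0.00669). The gene shares 173 exon bases with Prdx2 on the opposite strand, and whether the counting used the strand is not stated in the sources used here. Prdx2 stood at 279 ± 30.1 normalized CPM at D20 and 259 ± 38.0 at D30 (SD, n = 6), with a log2 difference of -0.11 (edgeR adjusted p = 0.404).

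Jun (chromosome 4, 95049034 to 95052222), the other partner in AP-1, changed in the opposite direction to its partners. It was 130, 151 and 172 normalized CPM in the lowest, median and highest MRO at D20, and 91.3, 108 and 149 at D30. Of the D30 MROs, 4 lay below the lowest at D20 and none above the highest. The mean fell from 149 ± 15.6 to 115 ± 22.3 (SD, n = 6), a log2 fold change of -0.38 (SE 0.10, edgeR adjusted p = 0.00444). D22 (130 ± 11.9) and D25 (132 ± 12.2) lay between, with log2 differences to D30 of -0.18 and -0.20 (edgeR adjusted p = 0.198 and 0.326), and the joint test did not pass (edgeR adjusted p = 0.0317). The call against D20 was lost with DESeq2 (adjusted p = 0.0201), with the size factors of DESeq2 in edgeR (adjusted p = 0.0197), with only D20 and D30 in the fit (adjusted p = 0.0222), and without any one of D20 replicates 1, 3 and 4 and D30 replicates 1, 2 and 3, where it reached 0.0165. With annotated genes alone in the scaling and the test, the change was larger, with log2 fold changes of -0.47 against D20 (edgeR adjusted p = 0.000164) and -0.32 against D22 (edgeR adjusted p = 0.00647), and the joint test passed (edgeR adjusted p = 0.00135). The antisense gene Junos shares 232 exon bases with Jun and had 263 reads over all 24 MROs, beside at least 1492 reads of Jun in each MRO.

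Within single MROs, the level of Fos per kb was 2.60% to 7.23% of that of Jun at D20, with a median of 6.28%. It was 2.94% to 7.60% at D22 and 5.20% to 8.06% at D25. At D30 it was 8.79% to 25.4%, with a median of 15.4%, and all 6 MROs lay above every earlier one. This ratio was looked at after the levels of both genes were known and is given without a test. Jun mRNA remained the more abundant of the pair in each MRO.

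**Figure D2:**
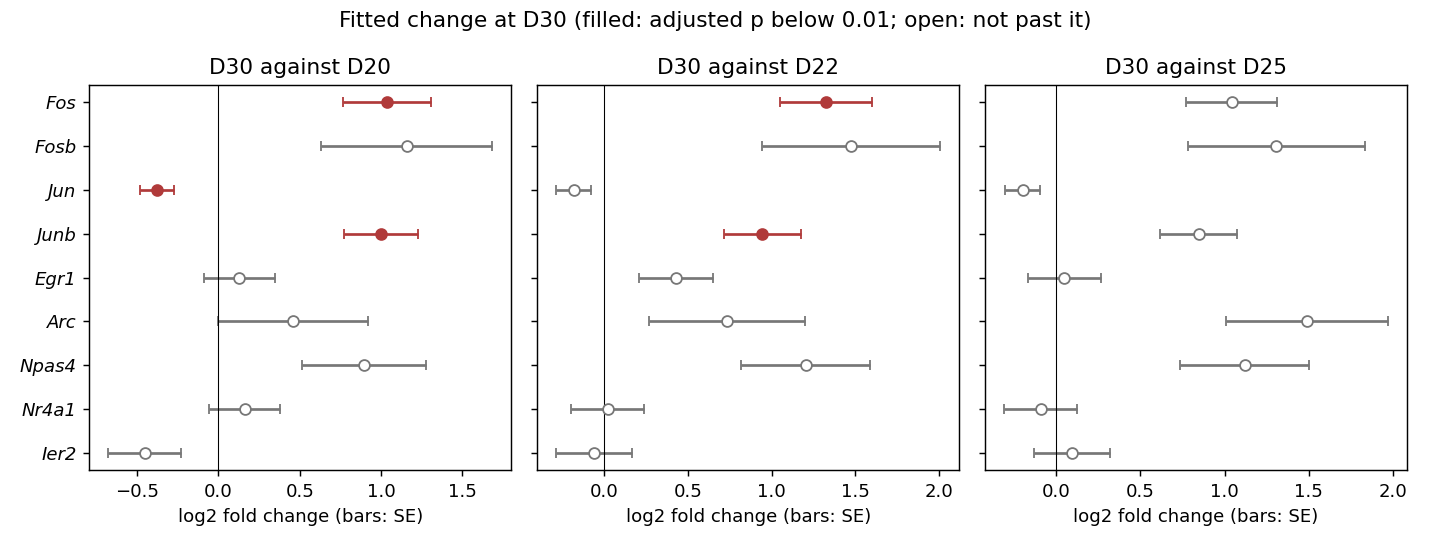
Fitted log2 fold changes (x axis, bars SE) of the 9 tested members at D30 against D20, D22 and D25 (panels). Filled points passed an adjusted p of 0.01: Fos, Jun and Junb against D20, Fos and Junb against D22, and none against D25.

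Egr1 and Nr4a1 passed no test between timepoints, and whether their changes differ from those of Fos and Junb was not tested. Egr1 (chromosome 18, 34859823 to 34864984), a zinc finger factor induced by growth factors and by synaptic activity, had 6.40, 9.21 and 12.1 normalized CPM in the lowest, median and highest MRO at D20, and 7.70, 10.9 and 12.1 at D30. The ranges were nearly the same. Its log2 fold change was 0.13 against D20 (SE 0.22, edgeR adjusted p = 0.682), and against D22, where the mean was lowest at 7.59 ± 2.96 (SD, n = 6), it was 0.43 (SE 0.22, edgeR adjusted p = 0.14). Nr4a1 (chromosome 15, 101254269 to 101274795) had 6.15, 8.04 and 11.3 normalized CPM at D20 and 6.89, 8.15 and 14.9 at D30. Its mean stayed between 8.10 and 9.68 at the 4 timepoints, and the joint test gave an edgeR adjusted p of 0.789. The SE of the change between D20 and D30 was 0.22 for both genes, below the 0.27 of Fos.

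Egr3 (chromosome 14, 70077203 to 70082614), a target and relative of Egr1, was too low to be tested with the filter. It was listed at 0 in 7 of the 24 MROs, which allows up to 3 counts in each. The lowest, median and highest MRO had 0, 0.0674 and 0.285 normalized CPM at D20, and 0.0554, 0.677 and 1.24 at D30. Of the D30 MROs, 4 lay above the highest at D20. Without the filter, the log2 fold change was 2.46 and did not pass (edgeR adjusted p = 0.104).

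Arc and Npas4, the members best known from neurons, varied widely between the MROs of D30, as Fosb and Egr3 did. The coefficient of variation there was 74.9% for Arc, 72.4% for Egr3, 56.5% for Fosb and 54.4% for Npas4. A wide spread was not particular to D30. At D20 the coefficient was 50.2% for Arc, 111% for Egr3, 59.3% for Fosb and 51.4% for Npas4. For Egr3 it was smallest at D30. Npas4 (chromosome 19, 4984355 to 4990316) had 1.14, 1.53 and 3.76 normalized CPM in the lowest, median and highest MRO at D20, and 1.45, 3.89 and 6.12 at D30. The groups overlapped, with 3 MROs of D30 above all of D20. On the 4 days in turn the mean was 2.06 ± 1.06, 1.66 ± 0.784, 1.77 ± 0.538 and 3.86 ± 2.1 (SD, n = 6). The log2 fold change was 0.90 against D20 (SE 0.38, edgeR adjusted p = 0.064) and 1.20 against D22 (SE 0.39, edgeR adjusted p = 0.0166), which did not pass.

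Arc (chromosome 15, 74669083 to 74672570) had 0.979, 2.38 and 4.35 normalized CPM in the lowest, median and highest MRO at D20, 1.09, 2.01 and 2.95 at D22, and 0.347, 1.28 and 1.95 at D25. At D30 it was 0.521, 3.43 and 6.79, a 13-fold range between MROs of the same age. Of these MROs, 2 lay above all of D20 and 2 below all of D20. The log2 fold change was -1.03 for D25 against D20 (edgeR adjusted p = 0.125) and 1.49 for D30 against D25 (SE 0.48, edgeR adjusted p = 0.057), and neither passed.

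Ier2 (chromosome 8, 84661331 to 84662852), a small nuclear protein induced with Fos by serum, had its highest mean at D20, 8.48 ± 2.23 normalized CPM (SD, n = 6), and the other means lay between 5.81 and 6.46. It was 6.26, 8.49 and 11.1 normalized CPM in the lowest, median and highest MRO at D20, and 3.91, 6.55 and 7.65 at D30. The groups overlapped, with 3 MROs of D30 below all of D20. The log2 fold change was -0.55 for D25 against D20 (edgeR adjusted p = 0.0778) and -0.45 for D30 against D20 (SE 0.22, edgeR adjusted p = 0.114), and neither passed.

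How far single MROs of one age differ was described by the biological coefficient of variation of the fit, whose median over the 16253 tested annotated genes was 0.222. Fosb (0.543), Arc (0.538) and Npas4 (0.437) lay at the percentiles 91.0, 90.7 and 83.0 of these genes, and Fos (0.325) at 70.6. Junb (0.276), Ier2 (0.265), Egr1 (0.263) and Nr4a1 (0.262) lay above the median, whereas Jun (0.144) lay at the percentile 16.9. For Fosb, Arc and Npas4 it was estimated from few counts, with base means of 18.1, 33.4 and 35.8.

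The pairs of members were compared to ask whether the same MROs are high for several of them. For each of the 36 pairs of the 9 tested members, the deviations of log2 normalized CPM from the mean of the timepoint were correlated over the 24 MROs, with two-sided permutation within timepoints and Benjamini-Hochberg adjustment over the 36 pairs. The coefficient was positive in 34 pairs, with a median of 0.30 and a range from -0.23 to 0.80, and 2 pairs passed an adjusted p of 0.05. Pairs of other genes were not compared, so whether a positive sign is particular to the members was not tested. Jun and Junb had r = 0.80 (permutation p = 4e-05, adjusted 0.00144) and Spearman's rho = 0.79 (permutation p = 6e-05, adjusted 0.00216), with r = 0.78 without the 2 MROs farthest from the median of Jun. Within D20, D22, D25 and D30 the r of this pair was 0.83, 0.72, 0.76 and 0.90. MROs that were high for Jun for their age were therefore also high for Junb, although the means of these genes moved in opposite directions between D20 and D30. With 1 library per MRO, a deviation of the MRO and one of its library cannot be told apart.

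Fos and Npas4 had r = 0.67 (permutation p = 0.0022, adjusted 0.0396) and rho = 0.63 (permutation p = 0.00475, adjusted 0.0371), with r = 0.58 without the 2 farthest MROs. Their r was 0.69, 0.51, 0.15 and 0.91 at D20, D22, D25 and D30, so that it was weak at D25. Fos and Jun had r = 0.58 (permutation p = 0.00792, adjusted 0.057) and did not pass, and Fos and Nr4a1 had r = 0.07 (permutation p = 0.767, adjusted 0.822). Arc and Npas4 had r = 0.54 (permutation p = 0.0246, adjusted 0.0805) and did not pass, with 0.20, 0.06, 0.14 and 0.95 at the 4 timepoints. By Spearman's rho 5 pairs passed. By Pearson's r, 1 pair passed without any one of D20 replicates 1, 3 and 4, D22 replicate 4, D25 replicate 5 and D30 replicates 2 to 6, whereas 4 passed without D20 replicate 5 and 6 without D30 replicate 1.

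**Figure D3:**
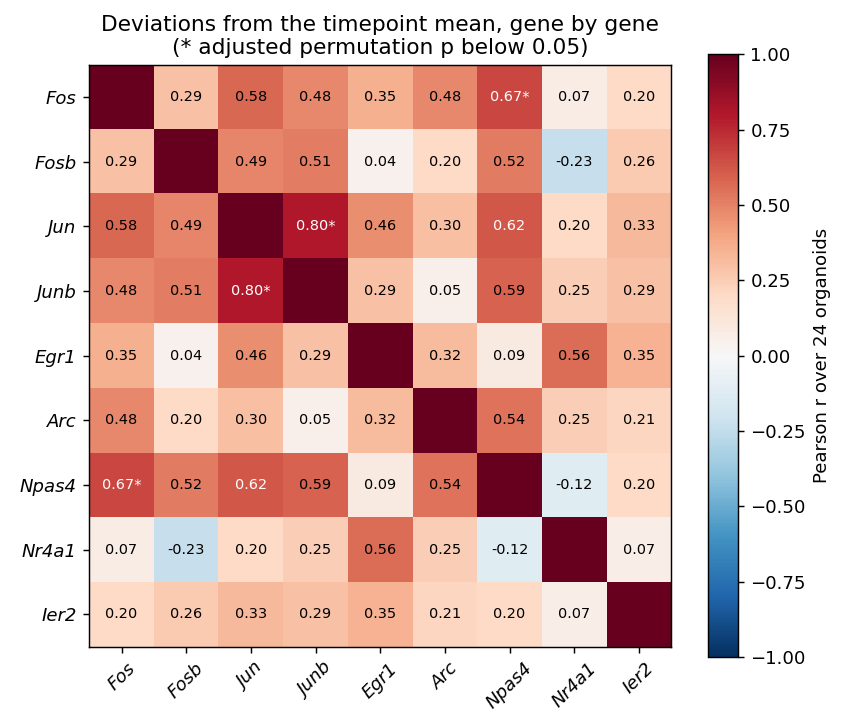
Pearson's r between the deviations of each pair of the 9 tested members from the timepoint mean, over 24 MROs (colour scale from -1 to 1). The asterisks mark the 2 pairs with an adjusted permutation p below 0.05, Jun with Junb (0.80) and Fos with Npas4 (0.67).

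At D30, the same MROs stood apart for Fos, Npas4, Arc and Egr3. For Fos, replicates 1 to 6 had 20.1, 10.8, 8.69, 16.9, 15.2 and 7.04 normalized CPM. For Npas4 they had 4.91, 2.88, 1.45, 6.12, 6.01 and 1.77, and for Arc 4.85, 2.94, 0.521, 3.92, 6.79 and 0.611. Replicates 1, 4 and 5 were the highest 3 and replicates 3 and 6 the lowest 2 for each of these genes. The same held for Egr3, with 0.742, 0.611, 0.174, 0.757, 1.24 and 0.0554. These levels rest on 13, 10, 3, 11, 19 and 1 counts, so that replicates 3 and 6 lay at or below the floor of 3 counts. Replicates 2 and 4 were hardly apart. Junb was ordered differently, with 10.7, 9.60, 13, 19.2, 21 and 12.4, high in replicates 4 and 5 but not in replicate 1. The other members had other orders as well. Fosb and Egr1 were highest in replicates 1, 4 and 5 but lowest in replicates 2 and 3. Jun was lower in replicate 1 (107) than in replicate 6 (109). Nr4a1 was 7.42 and 7.43 in replicates 1 and 4, beside 8.98 in replicate 6. Ier2 was highest in replicate 6 (7.65).

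**Figure D4:**
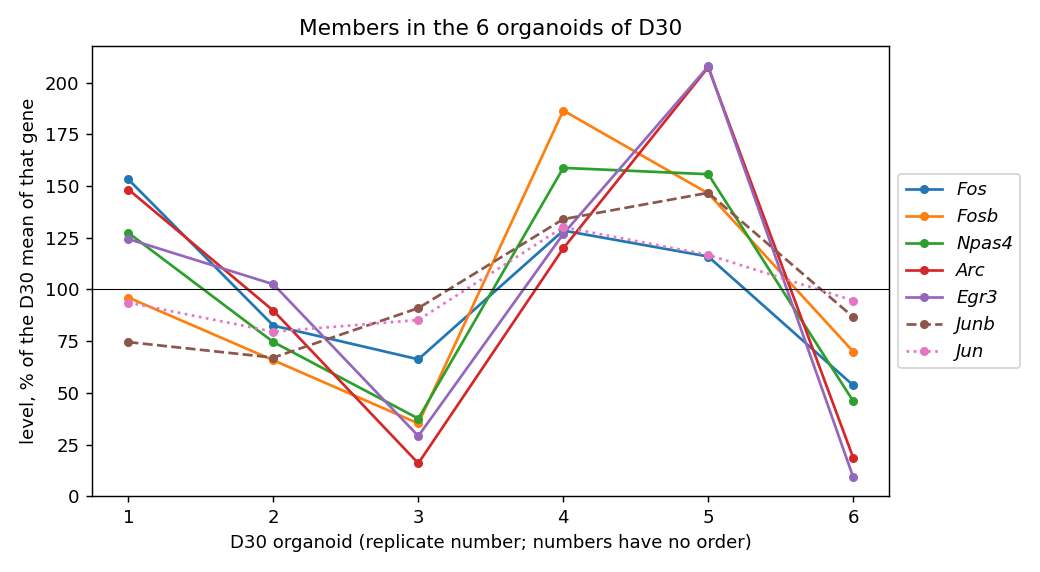
Levels of Fos, Fosb, Npas4, Arc, Egr3, Junb and Jun in the 6 MROs of D30 (x axis, replicate number, which has no order), each as a percentage of its own D30 mean (y axis). Lines join the values of a gene to guide the eye. Arc ranges from 0.521 to 6.79 normalized CPM, and the same MROs are low for Arc, Npas4, Egr3 and Fos. For Egr3 the low MROs, replicates 3 and 6, had 3 counts and 1 count.

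Marker sums of some cell types were ordered like Fos, Npas4, Arc and Egr3 over the MROs of D30, and others were not. The 7 markers of cortex type neurons, all of which passed the filter, summed to 355, 324, 249, 416, 462 and 205 normalized CPM in D30 replicates 1 to 6, highest in replicates 1, 4 and 5 as well. The sum ranged from 40.8 to 249.9 at D20 and from 50.6 to 84.8 at D22, and then from 149 to 490 at D25 and from 205 to 462 at D30. Between D20 and D30, 1 of these 7 markers passed as higher and 0 as lower. The list includes Neurod6, which the paper names as a gene of postmitotic amacrines, so this sum does not establish that cortical neurons were present. The 7 retinal ganglion cell markers, all tested, summed to 195, 194, 97.4, 234 and 283 in D30 replicates 1 to 5 and 54.8 in replicate 6, and to 119 to 232 at D20, 74.8 to 135 at D22 and 63.4 to 129.9 at D25. This sum does not stand for the list, since 5 of its 7 markers fell between D20 and D30 and 1 rose (median log2 fold change -2.86), and Nefl alone had a mean of 149 normalized CPM at D30. None of the markers of these lists was at 0 in all MROs of a timepoint.

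The markers of reactive glia, of which 5 of 6 passed the filter, summed to 2233, 834, 436, 741, 2399 and 252 normalized CPM in D30 replicates 1 to 6. On the 4 days in turn their sum ranged from 28.5 to 59.2, from 40.6 to 89.7, from 96.6 to 215 and from 252 to 2399, and Lcn2 and Edn2 were at 0 in all 6 MROs of D20. The 8 Müller glia markers, all tested, summed to 1019 to 1289 at D20 and 840 to 1049 at D22, and later to 1008 to 1358 (D25) and 1435 to 4487 (D30). The median glial sums were thus highest at D30. So were those of photoreceptor, bipolar, cortex type neuron, pigment epithelium, and pericyte and fibroblast markers. Retinal progenitor, amacrine and endothelial sums were not highest at D30. Over D30 replicates 1 to 6 the retinal progenitor sum was 315, 239, 224, 282, 312 and 255, highest in replicates 1, 4 and 5 as well. Of the Müller glia markers, 6 rose and 1 fell between D20 and D30. Their sum was 4487, 2742, 2193, 2693, 3369 and 1435 in D30 replicates 1 to 6, lowest in replicates 3 and 6. Pericyte and fibroblast markers, all 6 tested, were also highest in D30 replicates 1 and 5, with 122, 53.4, 31.3, 48.7, 206 and 16.4 in replicates 1 to 6, and their sum ranged from 6.90 to 27.3 at D20, 3.86 to 19.2 at D22 and 9.70 to 119 at D25.

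Other lists were ordered differently over the 6 MROs. The amacrine sum (6 of 7 markers tested) was 199, 149, 228, 166, 77.6 and 103 normalized CPM in D30 replicates 1 to 6, highest in replicate 3 and lowest in replicate 5. The photoreceptor sum was lowest in replicate 1 (6785) and highest in replicate 3 (13435). The pigment epithelium sum (3 of 6 markers tested) was 2647 and 2471 in replicates 2 and 6 and 22.2 in replicate 4. It rests on a part of its list, since 2 of the 6 markers had at most 3 counts in every MRO of D30. Of the 3 tested markers, 1 passed as higher at D30 than at D20. The paper lists retinal pigment epithelium among the cell types that MRO systems lack. The part of the listed cell types in the levels of the members was not tested. Age, day of harvest and cell makeup cannot be told apart between timepoints.

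The genes whose deviations over the 24 MROs were most like the mean of the 9 tested members were Smtn (r = 0.85), Sbf1 (0.84), Midn (0.83), Nucb1 (0.81) and Rbck1 (0.80), followed by Gaa, Fbrsl1, Necap2, Gm26917 and Cpsf1 (0.79 to 0.78), out of 10848 annotated genes with a base mean of at least 100. For Fos alone they were Grn (0.88), St6galnac4 (0.85), Tomm34 (0.84), Phkg2 (0.80) and Plekhj1 (0.79). Grn encodes progranulin, a secreted protein of lysosomes. These are descriptions of the highest values among many genes and carry no p. The r of a member with the mean of the other tested members ran from 0.12 (Nr4a1) to 0.75 (Jun).

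Relatives of the members showed a mixture of directions. The counts of the lists below can be read beside all 16253 tested annotated genes, of which 25.1% were higher and 16.7% lower at D30 than at D20, and 4.55% higher and 2.83% lower at D30 than at D25. No list was tested against these shares. Of 9 other AP-1 genes 5 were tested, and between D30 and D20 1 rose and 2 fell. Atf3, a stress-induced partner of Jun, rose (log2 fold change 1.71, edgeR adjusted p = 1.21e-05), and it was also higher at D30 than at D25 (1.14, edgeR adjusted p = 0.00775). Jund, the constitutive Jun protein, fell by 0.60 on the log2 scale and Maff by 1.72. Of 6 Egr and Nr4a relatives 5 were tested, with Nr4a3 (2.44) and Nab2 (1.15), a repressor of Egr proteins, higher at D30 than at D20 and Nab1 (-0.89) lower. The median log2 fold change was 0.33 in the first list and 0.84 in the second, beside -0.04 over all tested features. Over tested annotated genes it was 0.10, which also stands beside the D30 against D20 medians of the lists below.

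Among 24 other immediate early genes of growth factor responses, 23 were tested, and 2 were higher and 9 lower at D30 than at D20 (25.1% and 16.7% of annotated genes), with a median log2 fold change of 0.02. The antiproliferative gene Btg2 (-1.72), the pseudokinase gene Trib1 (-1.36) and Rgs2 (-1.55), a brake on G protein signals, were among those that fell. Of 13 MAP kinase feedback genes 12 were tested, of which 5 rose and 2 fell (median 0.21), including the ERK phosphatase gene Dusp6 (0.47), Dusp8 (0.94) and the receptor signal inhibitor gene Spry2 (1.11). Against D25, Dusp6 and Spry2 were among 3 that rose and none fell.

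The 32 upstream regulators were all tested, and 10 rose and 2 fell between D20 and D30 (median 0.18), near the share of annotated genes that rose. Camk2a (4.43) and Camk2b (2.14), calcium-dependent kinases of neurons, and Mef2a (0.78), an activity-regulated transcription factor gene, were higher. Of 18 neuronal late response genes, which are induced after the immediate early factors, 17 were tested and 7 rose and 2 fell (median 0.49), with Scg2 (1.76), Rgs4 (3.65) and Rasgrp1 (5.23) higher at D30. Against D25 it was 6 and 1. Many genes of these lists are also expressed constitutively in maturing neurons. Of 12 heat shock genes 11 were tested, and 3 rose and 1 fell (median 0.13), namely Hsp90aa1 (0.65) and Hsph1 (0.37) upward among the 3 and Hsp90ab1 (-0.92) downward.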

How the data were processed

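Total RNA of 24 single MROs was depleted of ribosomal RNA and made into strand-specific libraries. The authors trimmed the reads, aligned them to GRCm38/mm10 with HISAT2, assembled new transcripts with StringTie (version 1.3.3) and counted reads per annotated gene or assembled locus with HTSeq (version 0.6.1), tool versions being those of the submitters' processing notes. The deposited values are these raw counts, without normalization, and the strand setting of the counting is not stated in the sources used here. The summary lines at the end of each table were left out.

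The 10 members and the companion and marker lists were chosen with earlier results of these data known. A base mean of 10 or more was required (46949 of 126602, of which 16253 are annotated genes). Counts were scaled by TMM and tested in 1 quasi-likelihood fit of all 24 MROs with edgeR (version 4.0.16, under R version 4.3.3), with timepoint as the only term, p-values adjusted over every tested feature after Benjamini and Hochberg, and a threshold of 0.01. Normalized CPM use the TMM-scaled library size, and the scripts were tested on simulated counts. With 13634846 to 19477108 counts per MRO, the common biological coefficient of variation was 0.385, and counting error adds to it for members of few counts (Egr3, Fosb). Correlations used log2 normalized CPM with a prior count of 2 and 100000 permutations. All 10 members are named. Of each companion list, 3 genes at most are named, those with the smallest adjusted p in the joint test, and of the likeness lists the 10 and 5 highest r. Member coordinates and exon lengths are from GENCODE vM21. Alternatives were DESeq2 (version 1.42.0), its size factors in edgeR, other filters, annotated genes alone, a replicate block, the compared timepoints alone, and leaving out each MRO.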

Additional observations from a re-analysis of the deposited data

Results flagged for a closer look

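Each of the 10 genes was examined for a single MRO standing apart within each timepoint, which gave 40 groups of 6, and 2 of them were flagged by Dixon's test. Chance flags about 1 in 20 groups, so 2 of 40 is the number chance gives. Junb at D25 had its highest MRO, replicate 5, at 12.3 normalized CPM, with the other 5 between 5.80 and 7.53. Nr4a1 at D30 had its highest MRO, replicate 5, at 14.9 normalized CPM, with the other 5 between 6.89 and 8.98.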

How the results depend on the processing

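The comparisons were repeated under the alternatives. Of the 899 log2 fold changes of single members recomputed for the comparisons with D30, and for Arc and Ier2 between D20 and D25, 859 kept their direction and their side of the threshold, 14 passed it newly, 10 no longer passed it and 16 changed sign. For D30 against D25, DESeq2 called 2 members (Fos and Junb) and the fit of the compared timepoints alone called 1 (Fos), and leaving out single MROs gave 0 to 1, with 1 without D20 replicate 5, D22 replicate 2, D25 replicate 5 or D30 replicate 6. For D30 against D22, DESeq2 called 4 (Fos, Fosb, Junb and Npas4), and for D30 against D20 leaving out single MROs gave 1 to 3, with 1 (Junb) without D30 replicate 1. The 2 correlated pairs became 5 with the size factors of DESeq2 and 1 to 6 without single MROs. MROs of the same replicate number had a median r of 0.01 in their deviations, from -0.10 to 0.29. Those of different numbers had a median of 0.003, from -0.38 to 0.26. No pairing by number was thus seen over all tested features, and pairing in the members alone was not tested. Centring the deviations also on the number (replicate block) gave 11 pairs, where the permutation does not account for the degrees of freedom taken by the block, and the replicate block in edgeR left the counts of members called at 3, 2 and 0 for D30 against D20, D22 and D25. With annotated genes only, Jun passed for D30 against D22 (-0.32), and the log2 fold change was -0.0046 for Egr1 (D30 against D25) and -0.11 for Nr4a1 (D30 against D22), and Ier2 (D30 against D22) was 0.013 with DESeq2 and with its size factors in edgeR. The median annotated gene stood at 0.14 for D30 against D22 in the scaling used here and at -0.004 in that of annotated genes alone. Without single MROs, the range was -0.019 to 0.16 for Egr1, -0.29 to 0.012 for Nr4a1 and -0.0052 to 0.20 for Ier2 (D30 against D25), -0.17 to 0.12 for Nr4a1 and -0.16 to 0.043 for Ier2 (D30 against D22), and -0.033 to 0.28 for Nr4a1 (D30 against D20). The cause of these changes was not tested. With DESeq2, as with edgeR, no member was called in the comparisons among D20, D22 and D25.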
